A study of Mus musculus with 6 samples.

Results

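Hematopoietic cytokine receptors were examined in granulocyte-monocyte progenitors (GMP), marrow cells that give rise to neutrophils and monocytes. The set holds 10 genes, chosen by name: *Csf1r*, *Csf2ra*, *Csf2rb*, *Csf2rb2*, *Csf3r*, *Il3ra*, *Kit*, *Flt3*, *Il6ra* and *Il6st*. All 10 were found, each on a single row of the 24205 genes in the deposited table. The progenitors were sorted from marrow of C57BL/6 mice after either a sham operation or hindlimb ischemia (HI), a surgical loss of blood flow to a leg. Each group held 3 bulk RNA sequencing libraries. The sources used here do not give the time after surgery, the animals' age or the gate of the sort. Nor do they say whether each library came from its own animal, so the p-values reflect the spread among the libraries at hand, which may be technical. Expression is in TPM, a level scaled for gene length and library size. The reads recovered from the TPM values numbered 32547908 to 41624515 per library.

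These receptors carry the signals that keep myeloid progenitors alive, dividing and maturing. Csf1r, Kit and Flt3 are receptor tyrosine kinases that dimerize around their ligand. Csf3r binds granulocyte colony-stimulating factor (G-CSF) as a homodimer and signals through JAK kinases and STAT proteins. The receptors for GM-CSF and interleukin 3 (IL-3) each pair a ligand-binding alpha chain with a beta chain. Csf2rb is the beta chain shared by GM-CSF, IL-3 and IL-5, and Csf2rb2 is a mouse beta chain used by IL-3 alone. Il6ra binds interleukin 6 and passes the signal through Il6st, a chain shared by most of the interleukin 6 family. In marrow, Csf1r marks the monocyte branch, Csf3r the neutrophil branch, and Kit and Flt3 early progenitors.

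The beta chain genes lie beside each other on mouse chromosome 15 and are close paralogs, which bears on how their reads can be told apart. Over 2628 aligned coding bases of GENCODE M21 transcripts of both genes, 2503 were identical (95.24%), and the longest identical run was 242 bases. Of all 50-base windows of the Csf2rb transcript, 18.92% also occurred in the Csf2rb2 transcript, and 7.16% of its 100-base windows did. The end of the longest run is shown because a read inside it fits both genes, while a read across the capitals fits just the gene it came from. The stretch covers coding bases 2285 to 2364 of each gene, 5′ to 3′, with the 2 differing bases in capitals (GRCm38, chr15:78348779-78348858 on the plus strand for Csf2rb, chr15:78284590-78284669 on the minus strand for Csf2rb2).
Csf2rb: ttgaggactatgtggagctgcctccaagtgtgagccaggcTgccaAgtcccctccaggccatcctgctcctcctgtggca
Csf2rb2: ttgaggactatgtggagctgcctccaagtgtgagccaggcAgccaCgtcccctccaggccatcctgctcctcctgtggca
How the authors treated reads that fit several genes is not given in the sources used here, so the split between these genes is uncertain.

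The sorted cells carried the transcripts that define the granulocyte-monocyte progenitor. Myeloperoxidase, *Mpo*, stood at 11288 ± 1559 TPM in the sham libraries and 9846 ± 1922 TPM in the HI libraries, and neutrophil elastase, *Elane*, at 10672 ± 1484 and 10713 ± 676 TPM (mean ± SD, n = 3 each). *Cd34* had 277 ± 52.1 and 219 ± 41.5 TPM. All 10 markers fixed for this cell were above a mean of 1 TPM, with summed levels of 31344 to 37810 TPM in sham and 31031 to 36596 TPM after HI. Summed markers of other cells overlapped between the groups, except those of erythroid cells and megakaryocytes (151 to 181 TPM in sham, 82.4 to 128 TPM after HI) and of macrophages (92.1 to 103 TPM, and 69.9 to 84.3 TPM). A mean of at least 1 TPM was reached by 8 of the 11 erythroid and megakaryocyte markers, and by 4 of 7 macrophage markers. Most of the erythroid gap came from the globin *Hba-a1*, at 40.8 ± 4.42 TPM in sham and 12.6 ± 8.48 TPM after HI (n = 3 each). The megakaryocyte markers did not share one direction. *Pf4* had 45.8 ± 13.4 and 51.9 ± 14.2 TPM, while *Itga2b* had 21.5 ± 4.22 and 16.7 ± 3.43 TPM (n = 3 each). *Gp1bb* (0.63 and 0.78 TPM) and *Vwf* (0.579 and 0.584 TPM) were below the 1 TPM mark, with slightly higher means after HI. Most of the macrophage gap came from *Apoe*, at 78.5 ± 7.61 and 59.2 ± 6.16 TPM (n = 3 each). The macrophage receptor *Mertk* was at or near 0 in both groups, with at most 0.056 TPM. Their part in the receptor values was not tested. In bulk samples, fewer cells of a type and less RNA per cell cannot be told apart.

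All 10 receptors were expressed and passed the filter of at least 1 TPM in at least 3 libraries. Over the 6 libraries the means fell in 3 bands. *Csf2ra* (140 TPM), *Csf1r* (135 TPM), *Kit* (102 TPM), *Csf3r* (94.7 TPM) and *Csf2rb* (80.1 TPM) formed the highest. *Il6ra* (38.5 TPM), *Il3ra* (33.7 TPM), *Il6st* (20.4 TPM) and *Csf2rb2* (18.0 TPM) lay between, and *Flt3* (7.82 TPM) was lowest. The lowest library of *Csf2rb* was above the highest of *Il6ra*, and the lowest of *Csf2rb2* above the highest of *Flt3*, while every other pair of neighbours overlapped across libraries. Within a library the order was the same in all 6 for *Csf1r* over *Kit*, *Csf3r* over *Csf2rb* and *Il3ra* over *Il6st*. *Csf2ra* exceeded *Csf1r*, and *Kit* exceeded *Csf3r*, in 4 of 6 libraries. *Il6ra* exceeded *Il3ra*, and *Il6st* exceeded *Csf2rb2*, in 5 of 6.

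The order also depends on the gene length behind the deposited TPM. That length was inferred from the TPM values, as the exon union or else the smallest length yielding whole reads in every library. For *Csf3r* and *Il6st* the inferred length equals the GENCODE exon union. For *Csf2ra* it was 1849 bases against 2871, for *Il6ra* 3343 against 8642, and for *Flt3* 7760 against 6176. The reads given below for single receptors rest on these inferred lengths. With the union length and the same library scale, an alternative chosen after seeing the data, *Csf1r* would stand at 114 TPM, *Csf3r* at 94.7, *Csf2ra* at 90.0, *Kit* at 66.5, *Csf2rb* at 52.5, *Il6st* at 20.4, *Csf2rb2* at 17.5, *Il3ra* at 15.8, *Il6ra* at 14.9 and *Flt3* at 9.83 TPM. The ratio of a gene's TPM between libraries does not depend on its length, while sums over genes and values on the log2(TPM + 1) scale do.

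**Figure D1:**
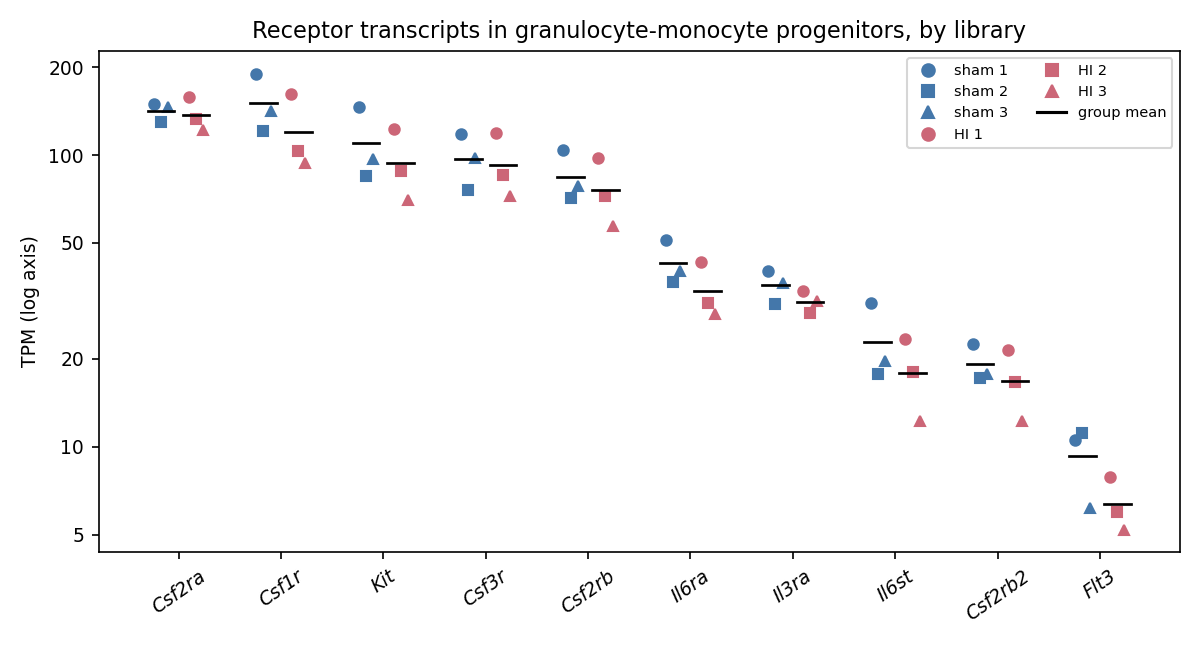
TPM (log axis) of the 10 receptors in each library, sham in blue and HI in red, with circles, squares and triangles for replicates 1, 2 and 3 and black lines for group means. The groups overlap for every receptor, and the circle is the highest point of its group everywhere except for Flt3 in sham.

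Sham and HI libraries were compared to see whether receptor transcripts in marrow progenitors differ after limb ischemia. All 10 receptors had a lower mean after HI, with log2 fold changes from -0.46 to -0.05 and a median of -0.21. None passed the test, and the groups overlapped for all 10. By limma-trend on log2(TPM + 1), 0 of 10 had an adjusted p under 0.05, where 0 of 13787 genes tested did (0%). At an unadjusted p under 0.05 the receptors again gave 0, against 537 genes (3.89%), 407 of them lower (2.95%). The groups did not overlap for 1149 genes (8.33%), with HI lower for 921 of them (6.68%). Over the 13787 genes the median was -0.09, and 69.1% lay below 0, so the sign shared by the receptors was also that of most genes. With median-of-ratios size factors the median of all genes shifted by more than 0.1, to 0.01, and 8 of 10 receptors were lower, with *Csf2ra* and *Csf3r* above 0.

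Among the lineage receptors, *Csf1r*, which binds M-CSF and is needed by macrophages, had a lower mean after HI. *Csf1r* (ENSMUSG00000024621) stood at 190, 121 and 141 TPM in sham replicates 1, 2 and 3, and at 162, 103 and 94.1 TPM in HI replicates 1, 2 and 3. HI replicates 2 and 3 lay below every sham library, and HI replicate 1 lay above sham replicates 2 and 3. Its log2 fold change was -0.35 (95% interval -0.82 to 0.13; adjusted p = 0.874 by limma), from 10164 to 15717 reads per library.

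*Csf3r* (ENSMUSG00000028859; GRCm38 chromosome 4, 126024550 to 126044440), the G-CSF receptor that drives neutrophil production, had nearly equal means. It stood at 118, 75.9 and 97.6 TPM in sham and at 119, 85.6 and 72.5 TPM after HI. Replicate 1 was the highest library in both groups, and the lowest of all was HI replicate 3. The log2 fold change was -0.08 (95% interval -0.53 to 0.37; adjusted p = 0.931 by limma).

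Within a library, the ratio of *Csf3r* to *Csf1r* sets the neutrophil receptor against the monocyte receptor and is free of library scaling. The ratio was 0.620, 0.628 and 0.692 in sham replicates 1, 2 and 3, and 0.736, 0.831 and 0.771 in the HI replicates. Every HI library was above every sham library. On the log2 scale the difference was 0.27, with means of -0.63 ± 0.09 in sham and -0.36 ± 0.09 after HI (SD, n = 3 each). The two-sided exact permutation p was 0.1, the smallest that 20 relabelings allow, and 0.5 after adjustment over the 5 single values tested, so the difference did not pass. For comparison, 5.63% of 13673 other genes had a ratio to *Csf1r* that was likewise higher in every HI library, and the ratio of *Csf3r* to 8.61% of other genes was. The difference was 0.25 after correction for GC content and transcript length.

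*Csf2ra* (ENSMUSG00000059326; chromosome 19, 61223957 to 61228429), the GM-CSF alpha chain and the highest receptor by mean, varied least in sham, with a coefficient of variation of 7.47%. It stood at 149, 130 and 146 TPM in sham and 158, 133 and 122 TPM after HI, and the groups overlapped over most of their range. The log2 fold change was -0.05 (95% interval -0.35 to 0.26; adjusted p = 0.94 by limma). *Il3ra* (ENSMUSG00000068758; chromosome 14, 14346275 to 14356011), the IL-3 alpha chain, stood at 40.2, 31.0 and 36.5 TPM in sham and at 34.2, 28.7 and 31.5 TPM after HI. HI replicate 2 was its lowest library. Its log2 fold change was -0.18 (95% interval -0.52 to 0.16; adjusted p = 0.874 by limma), from 793 to 1089 reads per library.

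The beta chains moved together from library to library. *Csf2rb* (ENSMUSG00000071713; chromosome 15, 78325752 to 78353847) stood at 104, 71.0 and 78.4 TPM in sham and 98.0, 72.7 and 56.9 TPM after HI. *Csf2rb2* (ENSMUSG00000071714; chromosome 15, 78282507 to 78305721) stood at 22.6, 17.2 and 17.8 TPM in sham and 21.5, 16.7 and 12.3 TPM after HI. In both genes replicate 1 was the highest of each group and HI replicate 3 the lowest of all. Their log2 fold changes were -0.17 (95% interval -0.62 to 0.28; adjusted p = 0.878 by limma) and -0.20 (-0.65 to 0.25; adjusted p = 0.874). Of the 45 pairs of receptors this pair was the closest in profile, with a root mean square difference of 0.057 on the log2 scale over the 6 libraries. The part of shared sequence, shown above, in this likeness was not tested. The ratio of summed alpha chains to summed beta chains was 1.501, 1.82 and 1.90 in sham and 1.604, 1.81 and 2.22 after HI, with overlapping groups and a two-sided exact permutation p of 0.6.

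Among the early progenitor receptors, *Kit* (ENSMUSG00000005672; chromosome 5, 75574916 to 75656722), the stem cell factor receptor, stood at 147, 85.0 and 97.3 TPM in sham and 123, 88.3 and 70.2 TPM after HI. Sham replicate 1 was the highest library and HI replicate 3 the lowest, and the difference of the means (HI minus sham), -15.9 TPM, was smaller than the sham SD of 32.6 TPM. The log2 fold change was -0.22 (95% interval -0.73 to 0.28; adjusted p = 0.874 by limma). Kit protein is commonly used to sort such progenitors.

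*Flt3* (ENSMUSG00000042817; chromosome 5, 147330741 to 147400489), a receptor of multipotent and dendritic progenitors, was the lowest of the set and had the most negative fold change. It stood at 10.6, 11.1 and 6.18 TPM in sham and 7.88, 5.96 and 5.20 TPM after HI, from 934 to 1585 reads. Sham replicates 1 and 2 were above every HI library, and sham replicate 3 lay within the HI range. The log2 fold change was -0.46 (95% interval -0.96 to 0.03; unadjusted p = 0.0642 and adjusted p = 0.874 by limma). The ratio of *Kit* to *Flt3* was 13.8, 7.64 and 15.7 in sham and 15.6, 14.8 and 13.5 after HI. Sham replicate 2 stood apart in this ratio, and the two-sided exact permutation p was 0.7.

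The interleukin 6 receptor chains both had lower means after HI. *Il6ra* (ENSMUSG00000027947; chromosome 3, 89864059 to 89913196) stood at 51.3, 36.9 and 39.9 TPM in sham and 43.1, 31.2 and 28.6 TPM after HI. HI replicates 2 and 3 were below every sham library, as for *Csf1r*. Its log2 fold change was -0.32 (95% interval -0.73 to 0.10; adjusted p = 0.874 by limma). *Il6st* (ENSMUSG00000021756; chromosome 13, 112464070 to 112510086) stood at 31.2, 17.7 and 19.7 TPM in sham and 23.5, 18.1 and 12.2 TPM after HI, the widest relative spread of the set within both groups (coefficients of variation of 31.8 and 31.4%). Its log2 fold change was -0.34 (95% interval -0.89 to 0.22; adjusted p = 0.874 by limma). The ratio of *Il6ra* to *Il6st* was 1.65, 2.08 and 2.03 in sham and 1.83, 1.72 and 2.34 after HI, with a two-sided exact permutation p of 0.9.

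**Figure D2:**
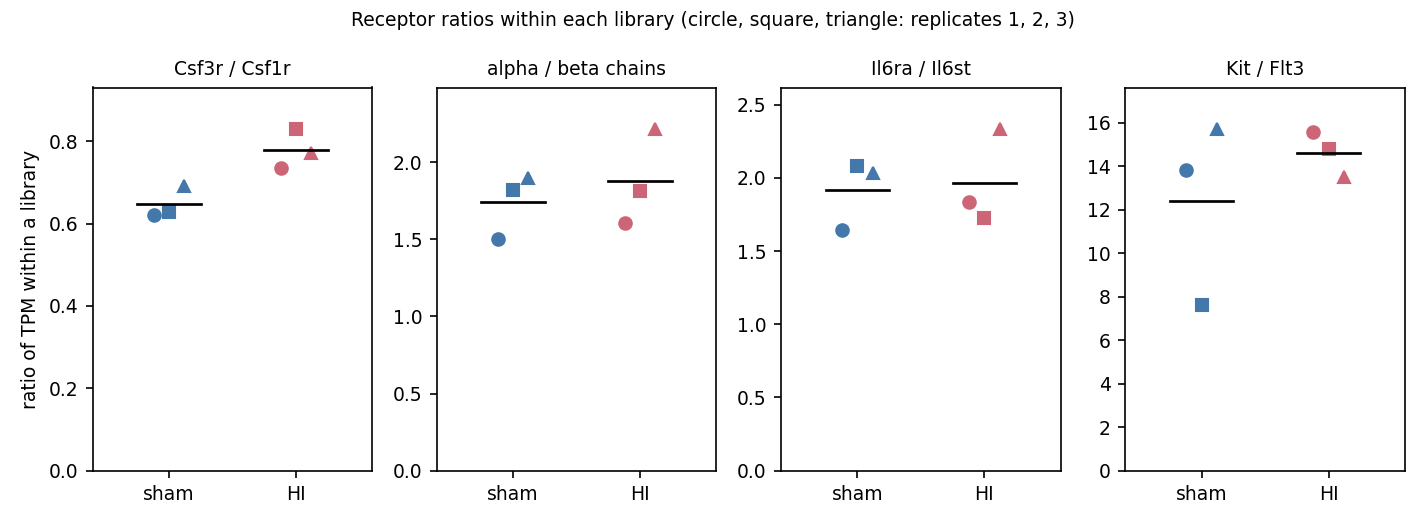
Ratios of TPM within each library, from left to right Csf3r to Csf1r, alpha chains (Csf2ra and Il3ra) to beta chains (Csf2rb and Csf2rb2), Il6ra to Il6st and Kit to Flt3, with black lines for group means. The groups separate for Csf3r to Csf1r, from 0.620 to 0.692 in sham and from 0.736 to 0.831 after HI, and overlap in the other panels.

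Over all 45 ratios between the 10 receptors, 4 separated the groups (8.89%), against 10.7% of all pairs of tested genes. *Csf1r* was lower relative to *Csf3r* and to *Csf2rb*, *Csf2rb* was higher relative to *Il6st*, and *Csf3r* was higher relative to *Il6ra*. The receptors' share is near that of all gene pairs, so it is no result about the receptors. In the authors' deposited table, with the sign turned to HI over sham, the log2 fold changes of the receptors ran from -0.29 for *Flt3* to 0.06 for *Csf2ra*, with *Csf3r* at 0.03, and the smallest adjusted p was 0.889.

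The receptors varied together across libraries of both groups. Relative to each gene's own mean on the log2(TPM + 1) scale, all 10 were high in sham replicate 1 (mean deviation 0.40) and in HI replicate 1 (0.22). All 10 were low in HI replicates 2 (-0.18) and 3 (-0.40), while sham replicates 2 (-0.07) and 3 (0.02) lay near the mean. The median deviation of all genes tested ran the same way, from 0.20 in sham replicate 1 to -0.16 in HI replicate 3. The mitochondrial share of TPM was 4.77, 5.51 and 4.40% in sham and 3.76, 6.35 and 7.50% after HI, highest in the HI libraries where the receptors were lowest. Its part in the receptor values was not tested. The receptors' summed level was 864, 596 and 681 TPM in sham and 789, 583 and 506 TPM after HI, a log2 difference of -0.20 with a two-sided exact permutation p of 0.4. With single libraries left out it ran from -0.38 without HI replicate 1 and -0.32 without sham replicate 2 to -0.06 without HI replicate 3 and -0.05 without sham replicate 1.

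Long transcripts varied in the same direction. The 3395 genes in the longest 25% by transcript length, at least 4237 bases, had median deviations of 0.32, -0.08 and -0.03 in sham and 0.13, -0.08 and -0.25 after HI. The shortest 25% had -0.11 in sham replicate 1 and -0.04 in HI replicate 1, and was between 0.03 and 0.07 in the other libraries. Of the receptors, 6 of 10 have a transcript in that longest class. Transcript length here, and in the correction below, is that of the longest GENCODE transcript. It can differ from the length inferred for the deposited TPM, as for *Il6ra* (8639 against 3343 bases) and *Flt3* (3951 against 7760 bases). When the dependence on GC content and transcript length was taken out of every library, the receptors' mean deviation ran from -0.09 to 0.12, and 6 of 10 were lower after HI, with a median log2 fold change of -0.03 against 0.003 for all genes. In that fit *Csf2ra* was at 0.13 (95% interval -0.02 to 0.28), *Csf3r* at 0.12 (-0.11 to 0.35), *Il6ra* at -0.15 (-0.31 to 0.02), *Csf1r* at -0.13 (-0.37 to 0.11) and *Flt3* at -0.28 (-0.72 to 0.15), and 0 of 10 passed by limma (smallest adjusted p of the receptors 0.727).

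**Figure D3:**
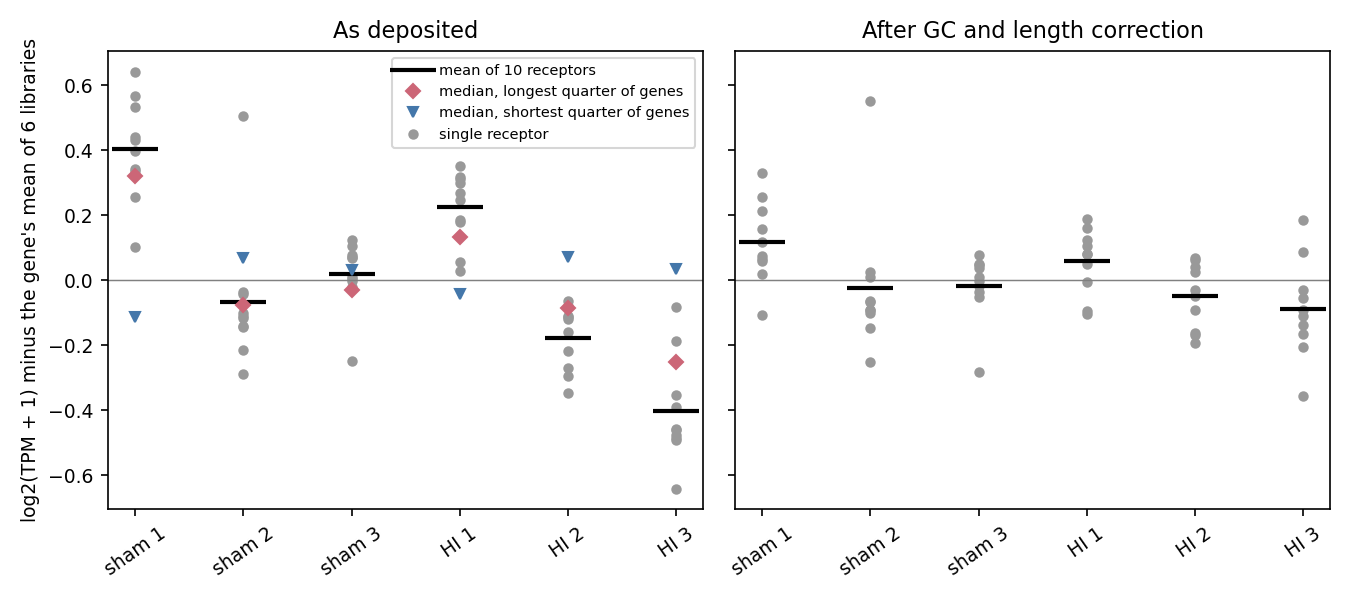
Deviation of log2(TPM + 1) from each gene's mean of the 6 libraries, for the 10 receptors (grey points, black bar for their mean) as deposited at left and after the GC and length correction at right, with medians of the longest and shortest 25% of genes. As deposited, the receptor mean runs from 0.40 in sham 1 to -0.40 in HI 3 beside the longest 25% of genes, and after correction from 0.12 to -0.09.

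**Figure D4:**
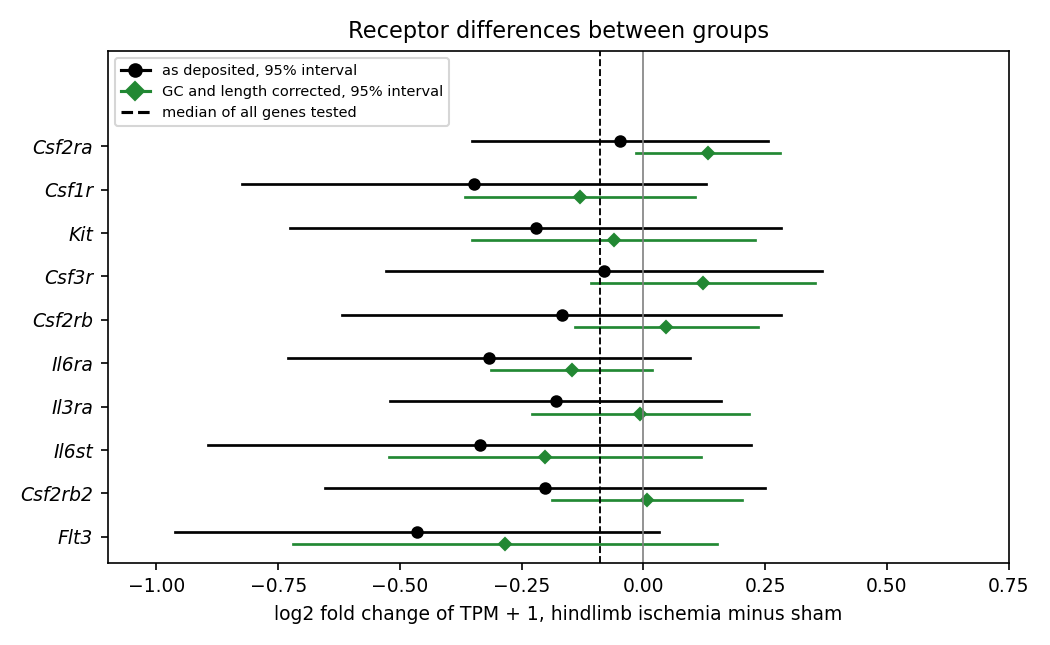
Log2 fold change of TPM + 1 (hindlimb ischemia minus sham) of each receptor with its 95% interval from limma, as deposited in black and after the GC and length correction in green, with the dashed line at the median of all genes tested, -0.09. Every interval includes 0, and the corrected values lie to the right of the deposited ones.

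Promoter stretches are shown for the receptors of GM-CSF, G-CSF and stem cell factor, to set the letters of a known myeloid factor motif beside the values. PU.1, encoded by *Spi1*, is a known regulator of myeloid receptor genes, and its part in these values was not tested. The sequences are those of RefSeq on GRCm38.p6, and stretches of 8 of the 10 receptors were used. None was used for *Csf1r* or *Csf2rb*, so the motif count below does not cover them. Whether these genes hold a match is not given here. The count is therefore not one for all 10 receptors, and its difference from the share over all genes was not tested. Each stretch covers the 250 bases before the RefSeq start, 5′ to 3′ on the gene's strand. For the 3 genes shown, that start lies inside the GENCODE gene span given above, so the stretches overlap the annotated gene. The match in Csf3r and the Csf2ra copy nearest the start lie within that span. The other Csf2ra copy lies partly within it, and the match in Kit lies outside it. Capitals mark the matches, the PU.1 core GAGGAA or its reverse complement TTCCTC. The stretches are chr19:61228419-61228668 (minus) for Csf2ra, chr4:126024409-126024658 (plus) for Csf3r and chr5:75574737-75574986 (plus) for Kit.
Csf2ra: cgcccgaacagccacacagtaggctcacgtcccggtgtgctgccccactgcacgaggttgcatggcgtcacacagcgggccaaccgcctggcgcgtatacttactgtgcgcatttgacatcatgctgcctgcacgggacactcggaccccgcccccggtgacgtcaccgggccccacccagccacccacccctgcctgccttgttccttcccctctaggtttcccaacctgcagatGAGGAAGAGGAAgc
Csf3r: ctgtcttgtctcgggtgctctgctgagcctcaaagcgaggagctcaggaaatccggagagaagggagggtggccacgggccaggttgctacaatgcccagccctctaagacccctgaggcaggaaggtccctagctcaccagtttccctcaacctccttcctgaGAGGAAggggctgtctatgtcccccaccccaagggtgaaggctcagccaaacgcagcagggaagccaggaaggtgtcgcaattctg
Kit: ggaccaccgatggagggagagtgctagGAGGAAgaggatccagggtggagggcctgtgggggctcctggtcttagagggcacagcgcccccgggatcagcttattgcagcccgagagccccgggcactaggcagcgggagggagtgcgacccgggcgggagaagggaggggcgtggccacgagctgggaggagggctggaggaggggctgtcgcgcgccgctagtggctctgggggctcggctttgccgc
The core occurred in 5 of the 8 receptor stretches, those above and *Il6ra* and *Csf2rb2*, and in 23.13% of 26994 stretches of the same length over all genes. *Flt3*, *Il6st* and *Il3ra* held no match, so the 3 stretches shown are all from genes with a match. *Csf2ra* held 2 copies side by side, directly before its RefSeq start, and 3.567% of all stretches held 2 or more. A match describes letters and is not a binding site. *Spi1* itself stood at 182, 167 and 186 TPM in sham and 190, 166 and 150 TPM after HI, with a log2 fold change of -0.08 (95% interval -0.38 to 0.21; adjusted p = 0.895 by limma).

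The ligands were low in these cells. Of 15 ligand genes 11 were found and 5 passed the filter. All 5 had lower means after HI (median log2 fold change -0.33), as did 69.1% of all genes tested. The 5 were lower also with size factors, quantile normalization and the GC and length correction, where the medians of all genes were 0.01, -0.01 and 0.003. *Ctf1* (1.77 TPM in sham and 1.41 TPM after HI) and *Clcf1* (1.03 and 0.71 TPM) were near the filter. *Osm*, an interleukin 6 family cytokine, had 12.8, 8.44 and 9.51 TPM in sham and 6.88, 6.08 and 5.49 TPM after HI, and its groups did not overlap. Its log2 fold change was -0.64 (95% interval -1.04 to -0.23; unadjusted p = 0.00513 and adjusted p = 0.874 by limma). *Csf1*, the ligand of Csf1r, had 7.69 ± 1.78 and 5.80 ± 0.82 TPM (n = 3 each) with overlapping groups. *Kitl*, *Flt3l*, *Csf3*, *Lif* and *Il11* were below the filter, with *Kitl* at 0.021 and 0.025 TPM.

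Of 36 other cytokine and growth factor receptors 27 were tested, and 22 had lower means (median -0.19), or 15 of 27 after the GC and length correction. *Ifngr1*, the interferon gamma receptor and the highest of them, stood at 256 ± 35.8 TPM in sham and 290 ± 20.1 TPM after HI, while the tumor necrosis factor receptor *Tnfrsf1a* had 113 ± 8.19 and 92.4 ± 13.3 TPM (n = 3 each). *Ifnar1*, a type I interferon receptor chain, did not overlap between the groups, with 36.8, 26.6 and 28.7 TPM in sham and 26.5, 22.2 and 19.4 TPM after HI (log2 fold change -0.42; adjusted p = 0.874 by limma). *Il10rb*, a chain of the interleukin 10 receptor, had 22.4 ± 1.22 and 17.5 ± 2.79 TPM (n = 3 each), also without overlap. *Il5ra* (eosinophils) and *Epor* (erythroid cells) were near the filter, at 1.25 and 1.57 TPM and at 1.42 and 1.19 TPM in sham and after HI. Low *Il5ra* does not mean that transcripts of its lineage were absent. The 10 basophil, mast cell and eosinophil markers, *Il5ra* among them, all had a mean of at least 1 TPM. They summed to 3281 to 4129 TPM in sham and 3527 to 3710 TPM after HI.

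Downstream of the receptors no gene passed the test. Among JAK kinases and STAT factors 11 of 11 had lower means (median -0.19), but 8 of 11 with size factors or quantile normalization and 5 of 11 after the GC and length correction. The most abundant were *Stat6*, with 70.4 ± 18.6 TPM in sham and 61.3 ± 19.7 TPM after HI, and *Jak1*, with 58.9 ± 10.2 and 51.3 ± 5.58 TPM (n = 3 each). *Stat2*, which acts in interferon signaling, had the smallest unadjusted p of that list, 0.0435, at a log2 fold change of -0.44 (adjusted p = 0.874 by limma), and *Stat5b*, a main transducer of these receptors, was at -0.30. Among adaptors and RAS and PI3K transducers 20 of 22 had lower means (median -0.21), or 12 of 22 after correction, with *Vav1*, a guanine nucleotide exchange factor, at 172 ± 31.8 and 141 ± 40.7 TPM and the tyrosine kinase *Fes* at 177 ± 25.5 and 156 ± 40.5 TPM (n = 3 each). *Plcg1*, a phospholipase, was at -0.42 with overlapping groups. Among inhibitors of receptor signaling 16 of 21 had lower means (median -0.15), or 11 of 21 after correction. The phosphatase gene *Ptpn6* had 197 ± 26.1 and 168 ± 36.5 TPM, the adaptor *Dok3* 108 ± 8.73 and 102 ± 14.5 TPM, and the STAT inhibitor *Pias3* 6.01 ± 0.76 and 4.29 ± 0.77 TPM without overlap (n = 3 each), while the ubiquitin ligase *Cblb* was at -0.34.

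Targets of receptor signaling held the smallest unadjusted p-values of these lists. Of 19 tested 16 had lower means (median -0.17), or 9 of 19 after the GC and length correction (median 0.009). At an unadjusted p under 0.05 by limma 4 were lower (2.95% of all genes), 0 of them past 0.05 adjusted. The list was chosen with earlier results of these data known, so that count is no test of it. *Dusp6*, a phosphatase induced by and acting on the ERK kinases, had 22.8, 17.4 and 19.3 TPM in sham and 13.8, 11.7 and 11.8 TPM after HI. Every HI library was below every sham library, and the log2 fold change was -0.63 (95% interval -0.99 to -0.27; unadjusted p = 0.00255 and adjusted p = 0.874 by limma). *Pim2*, a survival kinase, had 9.02, 7.89 and 7.91 TPM in sham and 5.61, 5.46 and 4.998 TPM after HI, again without overlap, at a log2 fold change of -0.54. Not all targets shared this: *Myc* had 227 ± 15.04 and 193 ± 32.1 TPM and *Cebpb*, a factor of stress granulopoiesis, 146 ± 10.3 and 136 ± 11.9 TPM (n = 3 each), with overlapping groups, and *Pim1* was at 0.09 on the log2 scale.

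Of 16 transcription factors that act on receptor genes 14 had lower means (median -0.19), or 9 of 16 after correction. *Gata2*, a factor of stem, mast and early progenitor cells, had 61.7, 50.2 and 50.1 TPM in sham and 40.8, 41.6 and 33.3 TPM after HI, without overlap (log2 fold change -0.48, 95% interval -0.81 to -0.14; adjusted p = 0.874 by limma). *Ets2* was at -0.33, and the highest of the list, *Myb*, had 237 ± 38.2 and 220 ± 33.9 TPM (n = 3 each). Among genes of receptor shedding and turnover 9 of 13 had lower means (median -0.08, and 0.02 with size factors). In that list *Ctsg*, the protease cathepsin G, had 2892 ± 223 and 2802 ± 171 TPM, and *Hgs* and *Rnf41*, which act in receptor sorting and ubiquitination, had 44.7 ± 6.01 and 34.1 ± 7.33 TPM, and 20.7 ± 1.98 and 16.1 ± 2.67 TPM (n = 3 each).

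**Figure D5:**
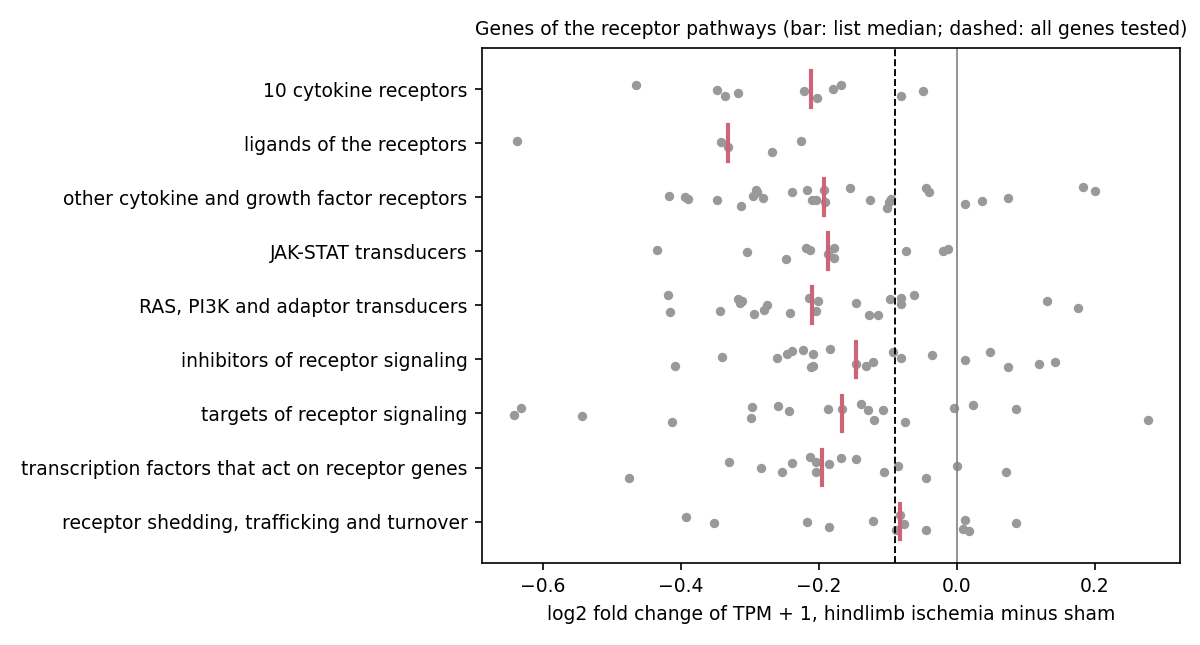
Log2 fold change of TPM + 1 (hindlimb ischemia minus sham) of every tested gene in the lists of the receptor pathways (grey points, red bar at the list's median), with the dashed line at the median of all genes tested, -0.09. The receptors lie between -0.46 and -0.05 with a median of -0.21, and most other lists have medians between -0.33 and -0.15, except receptor shedding and turnover at -0.08.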

How the data were processed

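Bulk RNA from sorted granulocyte-monocyte progenitors was measured in 3 sham and 3 hindlimb ischemia libraries. Per the file headers, the authors deposited TPM values per gene and library, a log2 fold change and an adjusted p-value. The submitters' processing notes name the mm10 build. The sources used here give no aligner, counter or strand setting. The deposited log2 fold change correlated with the hindlimb ischemia minus sham difference at a Spearman rho of -0.96 across genes, so its sign was turned. The 6 per-sample columns of the authors' short list were not used.

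The 13787 genes reaching 1 TPM in 3 or more libraries were fitted as log2(TPM + 1) by limma 3.58.1 (trend, robust, no covariate, R 4.3.3), with Benjamini-Hochberg adjustment over all genes and a threshold of 0.05. This scale understates changes of low genes. Single values per library were tested by exact permutation. Multiplied by gene length, TPM values fell on whole reads within 0.001 for 14404 genes with the GENCODE M21 exon union, and the other 9801 were given the smallest length yielding whole reads in every library. No libraries agreed within sampling noise (chi-square per gene 13.4 to 121). Tested on simulated data for this comparison (hindlimb ischemia versus sham, 13787 genes), the fit recovered 33 of 67 genes changed 1.5-fold and 62 of 67 changed 2-fold, with 19 false calls. Of genes changed 3-fold it recovered 59 of 66. The simulation drew each gene independently with a single dispersion (0.0133) and no shifts by GC content or transcript length. The real libraries hold such shifts, so these shares do not give the recovery in the real data. The GC and length correction subtracted loess curves (span 0.3) from each library's deviations. Same-numbered libraries were not treated as pairs.

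Genes named are the 10 receptors, the 2 genes of smallest p and the 2 of highest mean in each list, marker checks and the 3 genes closest in profile to Csf1r, Csf3r and Kit; a few other list members were chosen after their values were seen, and some genes under the rule are not reported here. The receptors and lists were chosen with earlier results of these data known.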

Additional observations from a re-analysis of the deposited data

How the results depend on the processing

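The receptors past 0.05 stayed at 0 of 10 under every alternative run, including the replicate block and each left-out library. The count over all genes was 0, but 1 without a variance trend, 0 to 41 with a library left out (41 without HI replicate 1), 69 with the replicate block (0 with the block and the GC and length correction) and 96 without replicate 1 of both groups, chosen after seeing the data. Deviations of same-numbered libraries correlated at 0.39, 0.18 and 0.08, and those of differently numbered libraries at values from -0.43 to 0.38. These values do not settle whether the numbers mark pairs. The labels do not say so, and the numbers were not taken as pairs. Under the block the smallest adjusted p of the receptors by limma was 0.165, for Csf1r. Flt3, Csf1r, Il6ra, Il6st and Il3ra were lower after HI under all 19 alternatives, but by amounts that varied: -0.71 to -0.28 for Flt3, -0.58 to -0.13 for Csf1r, -0.49 to -0.15 for Il6ra, -0.54 to -0.10 for Il6st and -0.28 to -0.0062 for Il3ra. The value nearest 0 came from the GC and length correction, except for Il6st (without sham replicate 1). The most negative came without HI replicate 1 for Csf1r, Il6ra and Il6st, without sham replicate 3 for Flt3 and without sham replicate 2 for Il3ra. The smallest adjusted p of these by limma was 0.092, for Csf1r without replicate 1 of both groups. Csf2ra turned to 0.066 with size factors, 0.024 with voom on recovered reads, 0.13 with the GC and length correction (0.13 with the replicate block added) and 0.034 without HI replicate 3. Csf3r turned to 0.033 with size factors, 0.12 with the correction (0.12 with the block) and 0.07 or 0.076 without sham replicate 1 or HI replicate 3. Csf2rb turned to 0.047 with the correction (0.047 with the block) and 0.019 without HI replicate 3, Csf2rb2 to 0.0063 with the correction (0.0063 with the block), and Kit to 0.0056 without sham replicate 1. The lowest values with a library left out, each without HI replicate 1, were -0.15 for Csf2ra, -0.37 for Csf2rb, -0.28 for Csf3r and -0.43 for Kit. The summed receptor level ran from -0.38 to -0.05 with a library left out. Likewise, the log2 ratio difference ran from 0.22 to 0.32 for Csf3r to Csf1r, -0.023 to 0.21 for alpha to beta chains, -0.10 to 0.12 for Il6ra to Il6st (-0.08 without sham replicate 1) and -0.016 to 0.51 for Kit to Flt3. The cause of these changes was not tested. With 3 libraries a group, exact p-values cannot pass 0.05, so an unchanged verdict there says nothing about stability.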

Other observations

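Among genes with a mean of at least 10 TPM, the profiles closest to 3 of the receptors over the 6 libraries were found by the root mean square difference of log2(TPM + 1) deviations from each gene's own mean. Closest to Csf1r were Zfp746 (0.021), the processed pseudogene Gm9770 (0.033) and Arf3 (0.039). Closest to Csf3r were B4galt1 (0.025), Arhgap19 (0.032) and Lrrc14 (0.037), and closest to Kit were Nfe2l1 (0.024), Pdpr (0.032) and Man2a2 (0.033). Zfp746 stood at 34.9, 22.3 and 26.1 TPM in sham and 28.9, 18.3 and 16.8 TPM after HI, and B4galt1 at 74.5, 48.6 and 60.7 TPM and 72.3, 52.7 and 44.4 TPM. With 6 libraries such distances describe the data and are no sign of shared control.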
